A study of Gallus gallus with 24 samples.

Results

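Heat alone was set against L-citrulline alone in the hypothalamus of broiler chickens (strain Ros 308 in the labels), a meat-type bird. The comparison took in 12 of the 24 libraries of the study, namely the 6 birds on the basal diet at 35 °C and the 6 birds on the L-citrulline diet at 24 °C, and covered every gene that could be tested, 13742 of the 16779 in the table. RNA of 1 hypothalamus sample was sequenced per library, taken here as 1 bird. The heated birds ate the unsupplemented diet and had been kept at 35 °C from day 28, and the L-citrulline birds ate a diet supplemented with 1% L-citrulline and stayed at 24 °C. Relative humidity was 60% in both environments, and all birds were aged 42 days at sampling. The 6 birds on the basal diet at 24 °C served as untreated controls for asking which changes the single treatments had in common, and 6 birds given both treatments entered the fit only to estimate the spread. Each treatment held 6 replicates of 12 chickens housed 3 to a cage. The labels do not give the birds' sex or say whether a replicate number marks a shared cage, chamber or day. The p-values therefore measure the spread between these birds.

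L-citrulline is an amino acid that argininosuccinate synthase and argininosuccinate lyase turn into arginine, from which the nitric oxide synthases make nitric oxide. The hypothalamus holds the neurons that regulate body temperature, food intake and the thyroid, stress and reproductive axes, and it receives timing signals from the circadian clock. Heat shock proteins are chaperones that bind unfolded proteins, and their genes are induced in most cells when temperature rises acutely.

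The 12 libraries held 12635239 to 14525246 gene counts. Hypothalamic markers were present, with 23 of 28 listed genes tested and their summed level at 188 to 312 CPM (counts scaled to a common library size) in the L-citrulline birds and at 220 to 296 CPM in the heated birds. NKX2-1, a transcription factor of the hypothalamus, was detected in all 12, although L-citrulline bird 2 had only 0.406 CPM and the next lowest of the 12, a heated bird, had 2.198 CPM. By mean log2 deviation from the mean of all birds, the hypothalamic list was low in L-citrulline birds 2 (−0.71) and 5 (−0.60). The other L-citrulline birds lay at 0.05 to 0.71 and the heated birds at −0.20 to 0.56. Markers of surrounding brain regions were present in both groups but not at equal levels. They summed to 457 to 1026 CPM with L-citrulline (median 518) and 546 to 1080 CPM with heat (median 750). Controls held 799.6 to 1095 CPM (median 868). For L-citrulline minus control the list median was −0.30, with 2 of 16 higher and 4 lower at an unadjusted p under 0.05 in edgeR. Over all genes these shares were 3.54% and 3.43%. The part of tissue composition in the contrasts was not tested. TTR, the thyroxine carrier made by choroid plexus, was far above the rest in L-citrulline bird 1 (1468 CPM) and bird 5 (1966 CPM), and the other 10 birds lay at 18.0 to 92.9 CPM. Genes of chromosome W, which only female birds carry, were high in 4 of 6 L-citrulline birds (birds 1 to 4) and in 2 of 6 heated birds (birds 2 and 6), so the groups were not balanced for this status. Values within high-W birds rest on 2 heated and 2 control birds, and values within low-W birds on 2 L-citrulline birds. In bulk RNA, fewer cells of a type and less RNA per cell cannot be told apart.

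No gene separated heat from L-citrulline at a Benjamini-Hochberg adjusted p of 0.05 in edgeR's quasi-likelihood test, 0 of 13742 (0%), and the smallest adjusted p was 0.319. At an unadjusted p under 0.05, 595 genes (4.33%) passed, 265 of them (1.93%) higher and 330 (2.4%) lower in heated than in L-citrulline birds. Where no gene differs, a share of about 0.05 is due at this threshold. The share found was not above it. DESeq2 called 1 gene and limma voom 0. The median standard error of a log2 difference was 0.11 and the median absolute difference 0.082. In counts simulated for this comparison, 50 genes differed at each of 1.25-fold, 1.5-fold, 2-fold and 3-fold. Of these 16%, 64%, 92% and 88% were recovered in that order, and 2 unchanged genes were called. With adjusted p-values, recovery depends on how many genes differ at once and may be lower where fewer do. The genes below are therefore described by their values, and none is called changed.

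The gene that DESeq2 called, ENSGALG00000004946, is described in the deposited table as a collagen type IV alpha 4 chain, a protein of basement membranes, and lies at 9:9462681-9492856 on the minus strand (GRCg6a; all coordinates are those of the deposited table). Its level was 1.06 to 5.76 CPM in the L-citrulline birds (median 3.10) and 0.360 to 1.07 CPM in the heated birds (median 0.850), while controls held 0.378 to 1.79 CPM (median 0.791). The L-citrulline birds stood above the heated birds except for a marginal overlap, and heated and control birds covered much the same range. The difference, heat minus L-citrulline, was −2.02 ± 0.38 (log2, SE), with an unadjusted p of 2.32e-05 and an adjusted p of 0.319 in edgeR against 0.00444 in DESeq2. Without L-citrulline bird 2 edgeR also called it, at an adjusted p of 0.0383. Of the 12 fits without a single treated bird, this was the only one to call a gene between the treatments. Voom, W status as a covariate and the fit without the birds of high TTR called 0.

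The smallest p among genes with a symbol was that of CRY1, a gene of the circadian clock. The clock runs as a loop in which CLOCK or NPAS2 pairs with ARNTL to drive the period and cryptochrome genes, whose proteins then repress that pair, with ROR and REV-ERB receptors setting the level of ARNTL. CRY1, a cryptochrome repressor at 1:53591410-53626354, lay at 86.6, 98.9 and 103 CPM in the L-citrulline birds (lowest, median, highest), at 97.5, 104 and 116 CPM in controls and at 111, 119.7 and 135 CPM in heated birds. Every heated bird was above every L-citrulline bird, with controls between and overlapping both. The log2 difference was 0.30 ± 0.064 (95% interval 0.17 to 0.43; unadjusted p 9.30e-05, adjusted 0.487 in edgeR), and it was 0.30 within the birds of high W status and 0.30 within those of low W status. Against control it was 0.19 ± 0.064 with heat and −0.11 ± 0.064 with L-citrulline, so the treated means lay on opposite sides of the untreated mean.

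PER3, a period repressor at 21:291189-310409, had the opposite order. Heated birds held 11.4, 13.7 and 16.3 CPM, controls 14.6, 16.6 and 22.8 CPM, and L-citrulline birds 14.6, 21.0 and 25.6 CPM. The heated and L-citrulline groups overlapped only between 14.6 and 16.3 CPM. The PER3 difference, heat minus L-citrulline, was −0.58 ± 0.14 (unadjusted p 0.000517, adjusted 0.949), −0.47 within high-W and −0.63 within low-W birds. Its difference from control was −0.38 ± 0.14 with heat and 0.19 ± 0.14 with L-citrulline.

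Over the clock list, 21 of 23 genes were tested, and 4 were higher and 1 was lower with heat at an unadjusted p under 0.05, against 1.93% and 2.4% of all genes. The median difference was 0.054, beside −0.0029 over all genes, and was 0.064 within high-W and −0.022 within low-W birds. Besides CRY1 and PER3 these were RORA, a retinoid-related orphan receptor, at 0.31 ± 0.13, NPAS2 at 0.38 ± 0.18 and ARNTL at 0.26 ± 0.13. CLOCK was 0.14 ± 0.074 higher with heat at an unadjusted p of 0.0797, and the repressors PER2 at −0.16 ± 0.15 and CRY2 at 0.093 ± 0.065 did not pass. The count of higher genes ranged from 1 without L-citrulline bird 4 to 6 without L-citrulline bird 2, and was 2 without the birds of high TTR. RORA was below control in both treated groups and lowest with L-citrulline, with means of 8.42 CPM under L-citrulline, 10.4 CPM under heat and 12.3 CPM in controls. NPAS2 had means of 42.0, 54.8 and 52.0 CPM in that order, so its L-citrulline mean stood below both others. The hour of sampling was not among the sample details used here, and its part in the clock values was not tested.

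**Figure D1:**
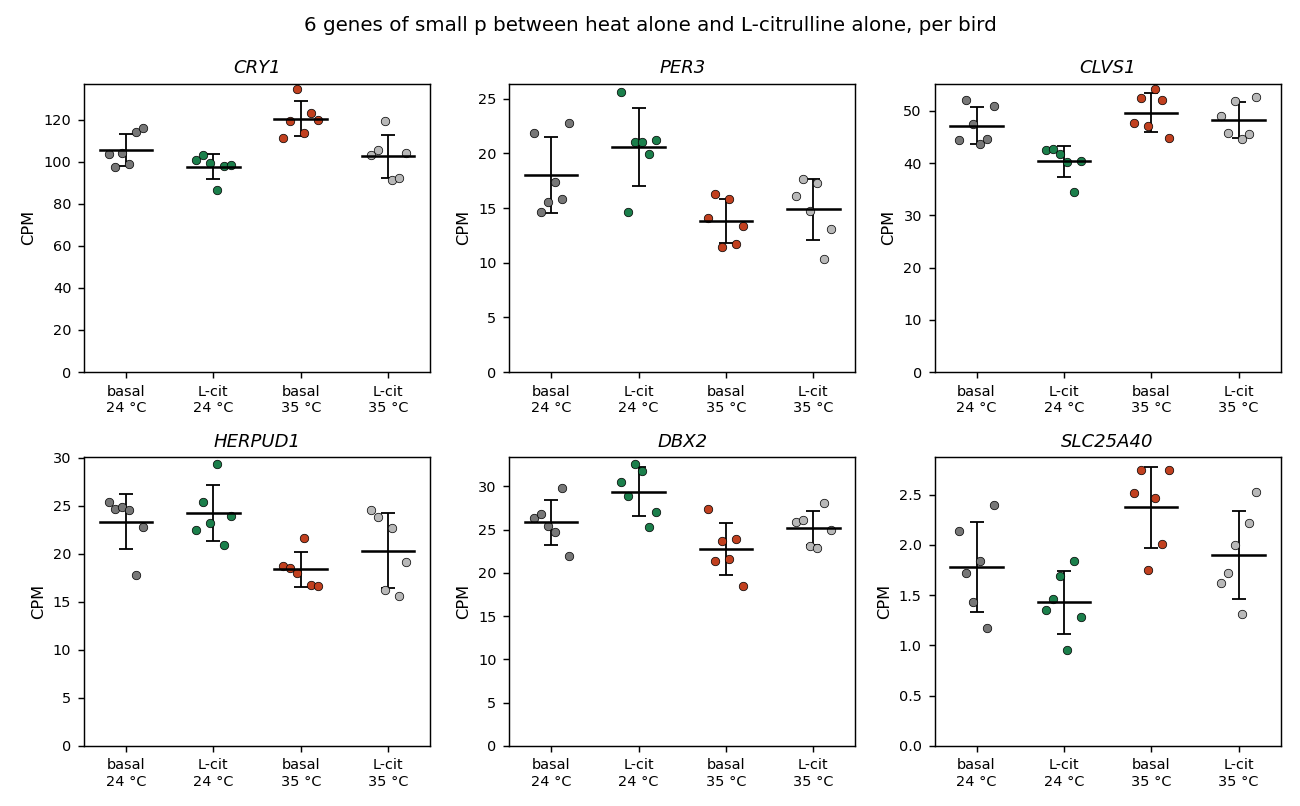
CPM per bird of CRY1, PER3, CLVS1, HERPUD1, DBX2 and SLC25A40 in the 4 groups, with 1 point per bird, a line at the group mean and a bar of ±1 SD. CRY1 and CLVS1 are higher in all 6 heated birds than in all 6 L-citrulline birds, and the untreated mean lies between the means of the single treatments in all 6 panels.

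Outside the clock list, the smallest p among genes higher with heat than with L-citrulline was that of CLVS1. This clavesin of neuronal clathrin-coated vesicles, at 2:113184668-113281852, held 34.5, 41.1 and 42.8 CPM with L-citrulline, 43.7, 46.1 and 52.1 CPM in controls and 44.8, 49.8 and 54.2 CPM in heated birds. All L-citrulline birds were below all birds of the other groups. The log2 difference between the single treatments was 0.30 ± 0.065 (unadjusted p 0.000106, adjusted 0.487), made up of 0.074 ± 0.065 with heat and −0.23 ± 0.065 with L-citrulline against control.

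SLC25A40, a mitochondrial carrier, held 0.951, 1.41 and 1.84 CPM with L-citrulline and 1.75, 2.49 and 2.75 CPM with heat, with controls at 1.17, 1.78 and 2.40 CPM. Only the extremes of the treated groups overlapped, and the difference was 0.73 ± 0.20. ACKR2, a scavenging chemokine receptor, ran from 0.203 to 0.854 CPM under L-citrulline and from 0.703 to 1.73 CPM under heat, a difference of 1.00 ± 0.32. TMEM174 was 0.88 ± 0.27 higher with heat, with medians of 0.539 CPM under L-citrulline, 0.856 CPM under heat and 1.07 CPM in controls, so here the L-citrulline birds lay below both others.

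In a further set of genes the L-citrulline birds stood near control and the heated birds above it. SSTR4, a somatostatin receptor, had medians of 18.9 CPM with L-citrulline, 19.5 CPM in controls and 25.0 CPM with heat, and the difference between treatments was 0.38 ± 0.12. BUD13, a splicing factor, was 0.39 ± 0.12 higher with heat than with L-citrulline and 0.43 ± 0.12 higher than in controls. PMPCB, a subunit of the mitochondrial processing peptidase, was 0.22 ± 0.071 higher with heat, and its L-citrulline value against control was 0.0025 ± 0.071. The other genes of smallest p in this direction were TMEM82 at 0.46 ± 0.13, ZNHIT6, a factor of snoRNP assembly, at 0.38 ± 0.11, ANAPC16, a subunit of the anaphase-promoting complex, at 0.17 ± 0.051, and SCNN1A, an epithelial sodium channel subunit, at 0.51 ± 0.17. For ZNHIT6 the difference was 0.62 within high-W and 0.18 within low-W birds, and for TMEM82 0.28 and 0.78. For BUD13 it was 0.23 within low-W birds.

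Among genes lower with heat than with L-citrulline, 17 (0.124% of all genes tested) had no overlap between the treated groups. FAM135B, at 2:144265089-144447528, held 10.5, 12.4 and 15.5 CPM with L-citrulline and 7.38, 8.36 and 8.78 CPM with heat. The treated groups did not overlap, and controls at 8.08, 10.01 and 12.7 CPM overlapped both. Its difference was −0.61 ± 0.15 (unadjusted p 0.000567, adjusted 0.949).

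BIRC7, a member of the inhibitor of apoptosis family, was also without overlap, at 5.29 to 8.82 CPM under L-citrulline and 3.02 to 5.02 CPM under heat, a difference of −0.83 ± 0.22. Controls spanned 2.34 to 7.34 CPM, wider than either treated group. TREM-B1, of the TREM family of immune receptors, held 1.07 to 1.87 CPM against 0.422 to 1.02 CPM, a difference of −1.13 ± 0.29. MDM1, a microtubule-binding protein of centrioles, differed by −0.26 ± 0.075 and likewise had no overlap, with medians of 13.5 CPM under L-citrulline, 11.6 under heat and 11.4 in controls.

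JAK2, the kinase of cytokine and leptin receptors, at Z:27532087-27615380, had medians of 35.7 CPM with L-citrulline, 26.9 CPM with heat and 28.3 CPM in controls, and differed by −0.39 ± 0.11 between the treatments. Its value against control was 0.31 ± 0.11 with L-citrulline and −0.077 ± 0.11 with heat. KANSL2, a subunit of a histone acetyltransferase complex, was −0.31 ± 0.081, MFSD12, a lysosomal transporter, −0.32 ± 0.092, and CSGALNACT2, an enzyme of chondroitin sulfate synthesis, −0.31 ± 0.089. MFSD12 was −0.17 within high-W birds, and CSGALNACT2 was −0.19 within high-W and −0.52 within low-W birds. ACTG2, a smooth muscle actin, had the largest fitted value of this set at −2.72 ± 0.76, and it rested on L-citrulline bird 5. That bird held 18.9 CPM against 1.07 CPM in the next, and without it the difference was −0.51 with an unadjusted p of 0.201.

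DBX2, a homeobox gene of neural progenitors at 1:30661406-30681723, was the only gene at an unadjusted p under 0.05 against control in opposite directions with the single treatments, 1 of 13742 (0.00728%). The unadjusted p in edgeR was 0.0470 with heat and 0.0481 with L-citrulline. Both comparisons use the same control birds, which makes passes in opposite directions rare. Heated birds held 18.4, 22.7 and 27.3 CPM, controls 21.9, 25.9 and 29.9 CPM, and L-citrulline birds 25.3, 29.7 and 32.6 CPM. Neighbouring groups overlapped. Heat minus control was −0.19 ± 0.088 and L-citrulline minus control 0.18 ± 0.088, which together gave −0.37 ± 0.088 between the treatments. The difference was −0.63 within high-W birds and −0.11 within low-W birds.

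Non-overlap of all 6 heated and all 6 L-citrulline birds was found for 24 genes (0.175%), 7 with heat higher (0.0509%) and 17 with heat lower (0.124%). Against control the counts were 30 (0.218%) with heat and 42 (0.306%) with L-citrulline. Groups of 6 birds also separate by chance, and the counts were not tested against that. Besides those described, the genes with heat higher were GSR, glutathione reductase, at 0.23, DSN1, a kinetochore protein, at 0.25, and PDXP, pyridoxal phosphatase, at 0.18. The lower ones included STXBP3, a syntaxin-binding protein, at −0.34, VASH2, a vasohibin, at −0.44, ITCH, a ubiquitin ligase, at −0.15, RAB8B, a vesicle GTPase, at −0.18, and MAPKAPK5, a kinase, at −0.18.

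**Figure D2:**
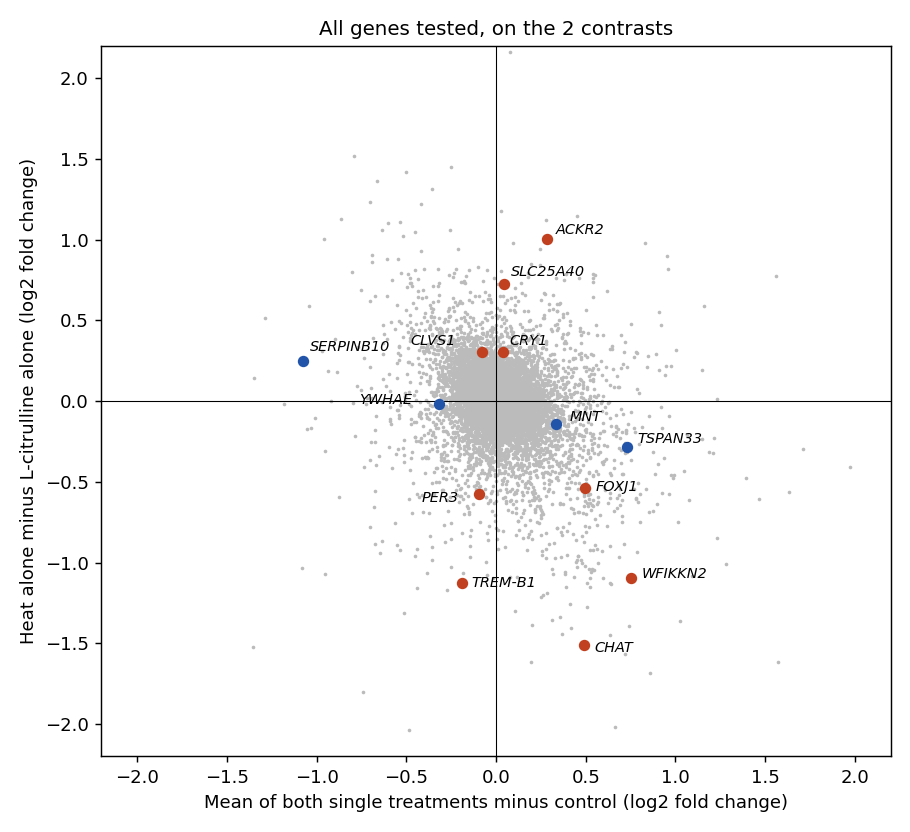
Each of the 13742 tested genes by its log2 difference between the mean of both single treatments and control (x) and between heat and L-citrulline (y), with 8 genes outside the axes of ±2.2. Red marks genes chosen from those described for the difference between the treatments, such as CRY1 (0.30 on the y axis), PER3 and ACKR2. Blue marks genes chosen from those described for both treatments against control, such as MNT and YWHAE (0.34 and −0.32 on the x axis). In edgeR 0 genes were called in either contrast.

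The pathway that connects L-citrulline to nitric oxide had a median difference near that of all genes. Of 29 listed genes 23 were tested, and 1 was higher and 1 lower with heat than with L-citrulline at an unadjusted p under 0.05, beside 1.93% and 2.4% of all genes. The median was −0.0060 beside −0.0029 over all genes, and 0.091 within low-W birds. NOS3, the endothelial synthase, held 13.9, 17.3 and 19.9 CPM with L-citrulline, 14.2, 20.7 and 25.1 CPM in controls and 19.0, 20.5 and 22.3 CPM in heated birds. Its groups overlapped, and it was 0.29 ± 0.11 higher with heat at an unadjusted p of 0.0197, which became 0.0545 without L-citrulline bird 2.

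NOS2, the inducible synthase, differed by −0.25 ± 0.10 (unadjusted p 0.0237), but −0.47 within low-W and −0.05 within high-W birds. NOS1, the neuronal synthase, differed by −0.0072 ± 0.24 (95% interval −0.50 to 0.49), wide enough to hold a change of either sign. ASS1, argininosuccinate synthase, was 0.23 ± 0.14 (interval −0.05 to 0.51), and ARG2, the mitochondrial arginase, −0.021 ± 0.089. The arginine transporters SLC7A1 and SLC7A3 were at 0.0011 ± 0.077 and −0.087 ± 0.11. ASL was not analysed here.

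Of 31 tested heat shock genes and chaperones 0 (0%) were at an adjusted p under 0.05 in edgeR and 0 at an unadjusted p under 0.05, in this contrast and in that of both treatments with control. Over all genes 4.33% and 5.25% were at that unadjusted level. The median difference was 0.0042, and it was −0.039 within high-W and 0.090 within low-W birds. HSPA8, the constitutive cytosolic HSP70, had medians of 2846 CPM with L-citrulline and 2850 CPM with heat and differed by 0.0039 ± 0.072 (interval −0.15 to 0.15). HSP90AA1 differed by 0.00015 ± 0.081 (interval −0.17 to 0.17). HSPH1, a nucleotide exchange factor for HSP70, differed by 0.10 ± 0.12 (interval −0.14 to 0.34).

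Among endoplasmic reticulum genes HERPUD1, a membrane protein of the degradation machinery for misfolded proteins at 11:615984-623539, held 20.9, 23.6 and 29.4 CPM with L-citrulline, 17.8, 24.6 and 25.4 CPM in controls and 16.6, 18.2 and 21.6 CPM in heated birds. L-citrulline and control birds covered similar ranges and heated birds lay lower with a narrow overlap. The difference between treatments was −0.40 ± 0.11 (unadjusted p 0.00197, adjusted 0.949), −0.51 within high-W and −0.25 within low-W birds. DNAJB9, a lumenal co-chaperone, was −0.19 ± 0.075, and these were the 2 of 20 list members lower at an unadjusted p under 0.05, beside 2.4% of all genes. The luminal chaperone HSPA5 was at −0.073 ± 0.10 (interval −0.28 to 0.14), and the list median of −0.039 was −0.0037 with W status as a covariate and 0.015 within low-W birds.

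Neuropeptide and axis genes varied widely between birds. Of 25 tested feeding genes 0 reached an unadjusted p under 0.05 between the treatments, beside 4.33% of all genes. Their median difference was 0.068 over all birds, −0.21 within high-W and 0.57 within low-W birds. Only 2 heated birds were high-W and only 2 L-citrulline birds low-W, so W status and single birds cannot be told apart here. NPY was at −0.065 ± 0.27 and POMC at 0.21 ± 0.60, and POMC ran from 0.0767 to 3.24 CPM within the L-citrulline birds alone. TRH, the thyrotropin-releasing hormone, was at −0.28 ± 0.48 and CRH, the corticotropin-releasing hormone, at 0.21 ± 0.37. PTGER3, the prostaglandin E2 receptor through which fever signals act in mammals, was 0.37 ± 0.14 higher with heat (unadjusted p 0.0134) and the 1 of 16 tested thermosensing and prostaglandin genes at an unadjusted p under 0.05, beside 4.33% of all genes. It was 0.24 within low-W birds.

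Of 23 tested antioxidant genes 1 was higher and 4 were lower with heat at an unadjusted p under 0.05, beside 1.93% and 2.4% of all genes, and without the L-citrulline birds of high TTR these counts were 1 and 1. GSR, which regenerates reduced glutathione, held 46.9, 49.97 and 53.9 CPM with L-citrulline and 55.2, 58.1 and 65.1 CPM with heat, without overlap, a difference of 0.23 ± 0.078. NFE2L2, the transcription factor NRF2, was lower with heat at −0.24 ± 0.10 (−0.09 within high-W and −0.42 within low-W birds), as were CAT, catalase, at −0.20 ± 0.085, TXNIP, an inhibitor of thioredoxin, at −0.36 ± 0.17, and the extracellular SOD3 at −2.04 ± 0.92. The mitochondrially encoded list (12 tested), the interferon-stimulated list (20) and the immediate early list (16) held 0 genes at that level in the contrast of the treatments, with medians of −0.030, 0.090 and 0.13. Without the birds of high TTR these were −0.055, 0.023 and 0.26. The interferon median was 0.013 with W status as a covariate, and the immediate early median was 4.2e-05 within high-W birds and 0.073 within low-W birds.

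**Figure D3:**
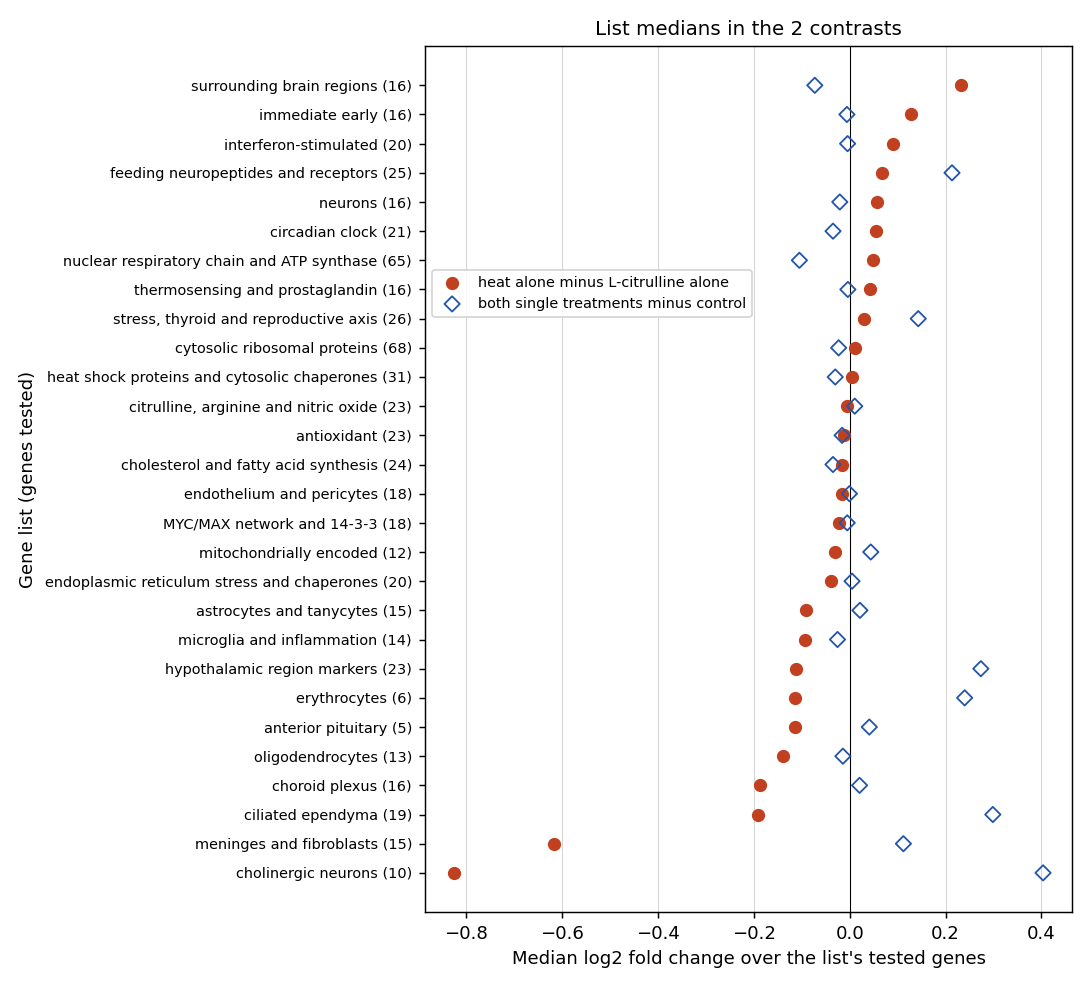
Median log2 difference of the tested members of 28 gene lists between heat and L-citrulline and between both single treatments and control, with the number of tested members beside each list name. The cholinergic and meningeal lists lie farthest below zero in the first contrast (−0.83 and −0.62), while the heat shock and citrulline lists lie near zero in both.

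Several marker lists of neighbouring tissues had values that rested on a few L-citrulline birds. Of 22 choroid plexus markers 16 were tested, none was at 0 in all 12 birds, and their summed level was 1051 to 3276 CPM with L-citrulline and 864 to 1199 CPM with heat. TTR was −3.76 ± 1.3 with heat against L-citrulline and −0.03 without L-citrulline birds 1 and 5. The list median was −0.19 with 4 lower genes at an unadjusted p under 0.05, beside 2.4% of all genes, and −0.038 with 1 without these birds. SLCO1C1, a thyroid hormone transporter, went from −2.31 to 0.35. Meningeal and fibroblast markers (15 of 18 tested, none at 0 in all 12 birds) summed to 403 to 1762 CPM with L-citrulline and 438 to 619.9 CPM with heat. They had a median of −0.62 with 0 at that level, and −0.089 without L-citrulline bird 5. This median was −0.24 within high-W and −1.15 within low-W birds, where bird 5 is 1 of only 2 L-citrulline birds. The pericyte and smooth muscle gene ACTA2 went from −1.44 to 0.05 without that bird. WFIKKN2, a protease inhibitor domain protein listed with choroid plexus, was −1.09 ± 0.36. It was at −0.38 within high-W and −1.91 within low-W birds, the latter again including L-citrulline bird 5.

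Genes of ciliated ependyma, the cell layer that lines the ventricles, were highest in the L-citrulline birds and intermediate in heated birds. The mean log2 deviation of the 19 tested members of 28 ran from −0.18 to 0.57 in L-citrulline birds (median 0.35), from −0.03 to 0.28 in heated birds (median 0.03) and from −0.52 to 0.34 in controls (median −0.23). All 3 groups overlapped, as did the summed levels of the treated groups, 281 to 397 CPM with L-citrulline and 289.9 to 336 CPM with heat. FOXJ1, the transcription factor of motile cilia, held 12.4, 17.4 and 22.2 CPM with L-citrulline, 9.35, 11.6 and 16.6 CPM with heat and 5.77, 10.2 and 14.8 CPM in controls.

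Between the treatments FOXJ1 was −0.54 ± 0.18 (unadjusted p 0.00671) and −0.40 with a p of 0.056 without the birds of high TTR. The axonemal genes HYDIN, CFAP44 and CCDC40 were at −0.41 ± 0.17, −0.50 ± 0.22 and −0.32 ± 0.13, which made 4 of 19 lower at an unadjusted p under 0.05, against 2.4% of all genes, with a median of −0.19 that was −0.11 within low-W birds. Without the birds of high TTR 0 of 19 reached that level, and leaving out single birds gave 2 (without L-citrulline bird 1) to 5 (without L-citrulline bird 2). The choroid plexus list was high in L-citrulline birds 1 and 5, as given above, and its part in the cilia values was not tested.

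Cholinergic neuron genes, a list added after the values of CHAT and SLC18A3 had been seen and therefore descriptive only, had a median of −0.83 over 10 tested members of 11. CHAT, the acetylcholine-synthesising enzyme, held 1.99, 9.09 and 22.4 CPM with L-citrulline, 1.87, 2.96 and 7.55 CPM in heated birds and 1.30, 2.74 and 12.0 CPM in controls. The groups overlapped, with controls reaching above the L-citrulline median, and the L-citrulline birds had the widest spread. CHAT was −1.51 ± 0.57 between the treatments, SLC18A3, the vesicular acetylcholine transporter, −1.07 ± 0.38, and SLC5A7, the choline transporter, −1.41 ± 0.55.

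The enzyme that degrades acetylcholine, ACHE, was at 0.19 ± 0.15 and the receptor NGFR at −0.0080 ± 0.17. The forebrain homeobox genes LHX8 and GBX1 were at −0.71 ± 0.59 and −0.94 ± 0.70. EMX2, a marker of surrounding regions, was −1.05 ± 0.39, and −1.98 within high-W birds. Its list went the other way, with 9 of 16 tested members higher and 7 lower with heat. The median of that list was 0.23, and 0.59 without the birds of high TTR. The cholinergic list median lay between −1.06 and −0.56 when single birds were left out. At an unadjusted p under 0.05, 0 of its 10 tested genes were higher and 3 lower, beside 1.93% and 2.4% of all genes. The count of lower genes was 1 without L-citrulline bird 5 and 4 without L-citrulline bird 1. With limma voom the cholinergic list median was −0.30. The part of surrounding forebrain tissue in these values was not tested.

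**Figure D4:**
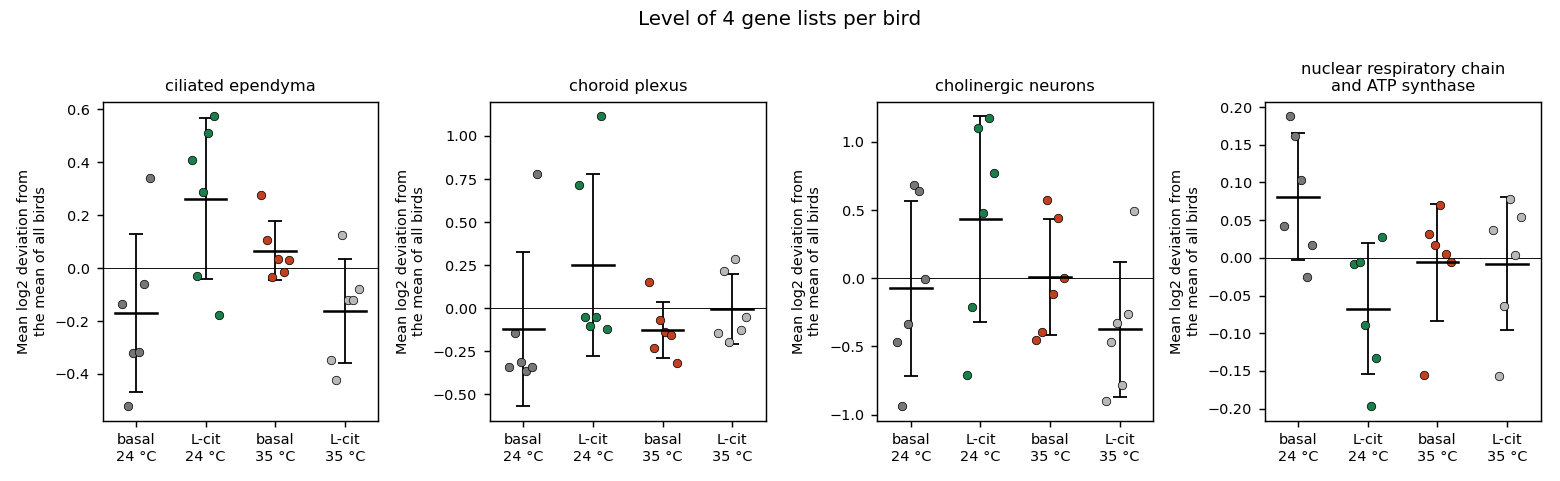
Mean log2 deviation of each bird from the mean of all birds over the tested genes of the ciliated ependyma, choroid plexus, cholinergic and nuclear respiratory chain lists, with 1 point per bird, a line at the group mean and a bar of ±1 SD. L-citrulline birds 1 and 5 reach 0.71 and 1.11 on the choroid plexus list, the respiratory chain list is highest in the controls, and the groups overlap in every panel.

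To find what the single treatments had in common, the mean of both was set against the untreated birds, a contrast orthogonal to heat minus L-citrulline. It called 0 of 13742 genes (0%) at an adjusted p under 0.05 in edgeR, with 721 (5.25%) at an unadjusted p under 0.05, 399 (2.9%) higher and 322 (2.34%) lower. DESeq2 called 2 genes, MNT and YWHAE, and voom 0. In counts simulated likewise for this contrast 54% of genes differing 1.25-fold and 72% of those differing 1.5-fold were recovered. Recovery was 90% at 2-fold and 96% at 3-fold, and 10 unchanged genes were called.

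Taken separately against the same control birds, heat had 507 genes at an unadjusted p under 0.05 (3.69%), 294 higher (2.14%) and 213 lower (1.55%). L-citrulline had 958 (6.97%), 487 higher (3.54%) and 471 lower (3.43%). The smallest adjusted p in edgeR was 0.9997 with heat and 0.0767 with L-citrulline, so neither comparison called a gene there. The heat share was below the 0.05 that is due where no gene differs. Of the genes tested, 146 (1.06% of all tested) lay in the same direction in both, 80 higher (0.582%) and 66 lower (0.48%). Both comparisons use the same control birds, so the count is a description. It ran from 112 to 221 when single birds were left out, the highest without control bird 5. It was 60 within high-W birds, 174 within low-W birds and 141 with W status as a covariate. MDGA1, ENSGALG00000055092 and DBX2 were the 3 genes (0.0218%) with an unadjusted p under 0.05 in both comparisons with control and also between the treatments. All 12 singly treated birds lay on one side of all 6 controls for 3 genes (0.0218%), and 30 genes (0.218%) had heated birds and 42 (0.306%) had L-citrulline birds free of overlap with controls.

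MNT, a MAX-binding repressor that antagonises MYC, at 19:9522848-9547621, was the 1 gene for which all 12 singly treated birds lay above all 6 controls (0.00728%). Controls held 13.0, 14.1 and 15.7 CPM, heated birds 15.8, 16.9 and 18.3 CPM and L-citrulline birds 16.2, 18.9 and 20.9 CPM. The treated groups overlapped with each other and not with controls. The mean of both treatments was 0.34 ± 0.062 above control (unadjusted p 1.33e-05, adjusted 0.182 in edgeR and 0.0107 in DESeq2), 0.27 ± 0.070 with heat and 0.41 ± 0.070 with L-citrulline. The treatments themselves differed by −0.14 ± 0.070 at an unadjusted p of 0.0512.

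YWHAE, a 14-3-3 protein that binds phosphorylated partners, at 19:5330957-5350899, and LAMTOR2, a subunit of the lysosomal complex that recruits mTORC1, were the 2 genes with all treated birds below all controls (0.0146%). For YWHAE controls held 39.3, 41.9 and 46.8 CPM, heated birds 30.2, 34.6 and 37.6 CPM and L-citrulline birds 31.1, 33.8 and 38.9 CPM. The treated groups covered the same range. It was −0.32 ± 0.065 for both against control (unadjusted p 4.92e-05, DESeq2 adjusted p 0.0217), and −0.019 ± 0.076 between the treatments. LAMTOR2 was −0.27 ± 0.077, with means of 24.7 CPM in controls, 20.8 CPM with L-citrulline and 20.1 CPM with heat.

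**Figure D5:**
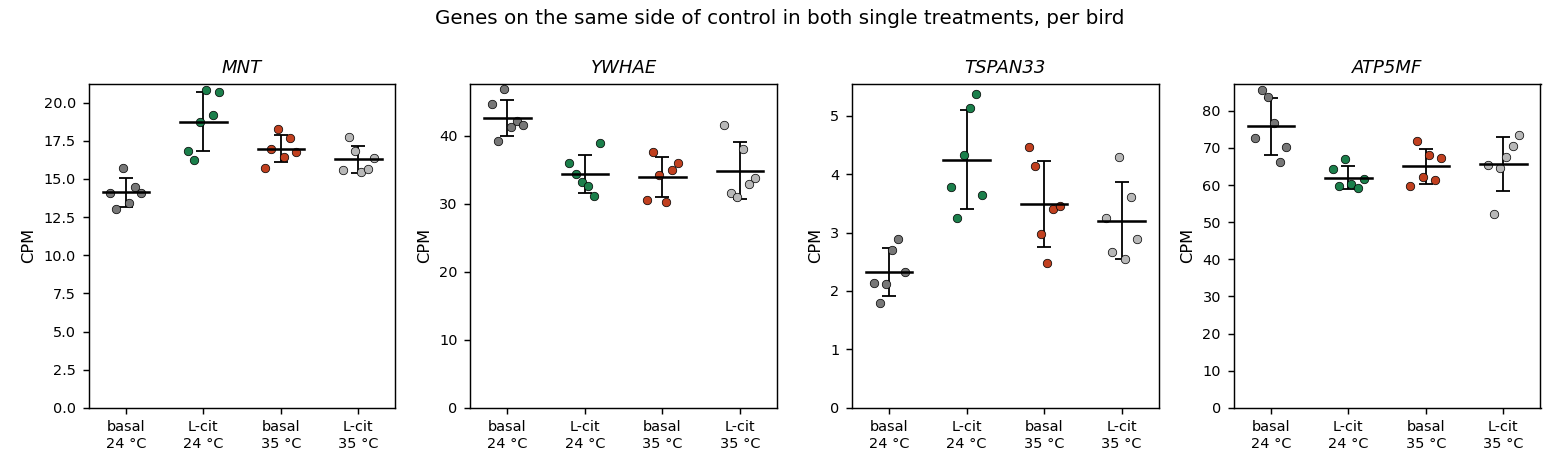
CPM per bird of MNT, YWHAE, TSPAN33 and ATP5MF in the 4 groups, with 1 point per bird, a line at the group mean and a bar of ±1 SD. All heated and all L-citrulline birds lie above the untreated birds for MNT and below them for YWHAE, while TSPAN33 and ATP5MF overlap.

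TSPAN33, a tetraspanin, at 22:3902960-3937658, held 1.78, 2.23 and 2.88 CPM in controls, 2.47, 3.43 and 4.46 CPM in heated birds and 3.25, 4.05 and 5.37 CPM in L-citrulline birds, and was 0.73 ± 0.16 higher for both against control. L-citrulline birds did not overlap controls and heated birds did. KAT2A, a histone acetyltransferase, was 0.21 ± 0.053 and differed between the treatments by −0.018 ± 0.060. WDR90, a protein of centrioles, was 0.34 ± 0.091, with 0.44 ± 0.10 for heat and 0.25 ± 0.10 for L-citrulline. SRSF7, a splicing factor, was 0.15 ± 0.036, and 0.07 within high-W birds.

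Of the 25 tested feeding genes 2 were higher and 0 lower for both treatments against control at an unadjusted p under 0.05, beside 2.9% and 2.34% of all genes. Their median difference was 0.21, beside 0.0026 over all genes, and it was 0.11 with W status as a covariate, 0.11 within high-W and 0.023 within low-W birds. By bird, the mean log2 deviation of the list ran from −0.59 to 0.20 in controls (median 0.12), from −0.0049 to 0.42 with heat (median 0.29) and from −0.79 to 0.58 with L-citrulline (median 0.020), so the groups overlapped. Hypothalamic region markers lay on the same side in 20 of 23 genes, with a median of 0.27. That median was 0.20 with W status as a covariate, 0.0079 within high-W and 0.11 within low-W birds. The part of these markers in the feeding values was not tested. CCKBR, a cholecystokinin receptor, had medians of 9.77 CPM in controls, 12.1 CPM with heat and 13.5 CPM with L-citrulline, a joint difference of 0.42 ± 0.12 that was 0.19 within high-W birds. MC4R, the melanocortin receptor that restrains feeding, was 0.56 ± 0.26. Among the lower genes, SERPINB10, a serpin, was −1.08 ± 0.28, MDGA1, an adhesion protein of synapses, −0.27 ± 0.069, and RAB11FIP2, an adaptor of recycling endosomes, −0.21 ± 0.057. MDGA1 was −0.17 ± 0.080 with heat and −0.38 ± 0.080 with L-citrulline.

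A list of nuclear genes of the respiratory chain and ATP synthase was added after ATP5MF and ATP5MPL had been seen among the genes of smallest p. It holds both genes and is therefore descriptive only. Its members lay below control in 63 of 65, with a median of −0.10. At an unadjusted p under 0.05, 24 of 65 were lower and 0 higher, beside 2.34% and 2.9% of all genes. Taken separately, 12 of 65 were lower with heat and 27 of 65 with L-citrulline, beside 1.55% and 3.43% of all genes. The joint count of lower genes was 15 without control bird 2 and 27 without control bird 6. The mitochondrially encoded list had 9 of 12 genes above control, with a median of 0.044. At that unadjusted level 0 of its genes were higher and 2 lower. ATP5MF, a subunit of ATP synthase, held 66.2, 74.7 and 85.7 CPM in controls, 59.8, 64.8 and 72.0 CPM in heated birds and 59.1, 60.9 and 67.0 CPM in L-citrulline birds. The treated birds overlapped the lower controls.

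ATP5MF was −0.26 ± 0.063 for both against control and −0.07 within high-W birds, and ATP5MPL −0.20 ± 0.053 and −0.11. The list median was −0.15 within low-W and −0.034 within high-W birds. COX6C, a cytochrome oxidase subunit, was −0.19 ± 0.055, UQCR10, of complex III, −0.14 ± 0.046, and NDUFA6, of complex I, −0.21 ± 0.072. Mean deviations of the list ran from −0.03 to 0.19 in controls, −0.16 to 0.07 with heat and −0.20 to 0.03 with L-citrulline, and so overlapped. Between the treatments 53 of 65 were higher with heat, and the list median was 0.048. At an unadjusted p under 0.05, 3 were higher (NDUFA13, NDUFC2 and COX5A) and 0 lower, beside 1.93% and 2.4% of all genes. The count of higher genes was 1 without the birds of high TTR, 1 without L-citrulline bird 4 and 8 without heated bird 1. The 68 tested cytosolic ribosomal protein genes had medians of −0.023 and 0.011 in these contrasts.

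For both treatments against control, ciliated ependyma genes were higher in 10 of 19 at an unadjusted p under 0.05, beside 2.9% of all genes, with a median of 0.30. Taken separately, heat had 4 of 19 higher (median 0.22), beside 2.14% of all genes. L-citrulline had 10 of 19 higher (median 0.46), beside 3.54% of all genes. The joint count was 9 without the birds of high TTR, control bird 6 included, and 7 to 12 when single birds were left out. DAW1, a factor of dynein arm assembly, was 0.48 ± 0.13, RSPH1, of the radial spoke, 0.70 ± 0.25, and FOXJ1 0.49 ± 0.16. For FOXJ1 the values against control were 0.23 ± 0.18 with heat and 0.76 ± 0.18 with L-citrulline. Clock genes in this contrast included RORA at −0.40 ± 0.11 and NR1D2, a REV-ERB receptor, at −0.22 ± 0.087, among 3 lower of 21, beside 2.34% of all genes. That count was 1 without control bird 6 and 4 without control bird 5.

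The authors' deposited table of this comparison marks 40 genes, 10 higher and 30 lower in heated than in L-citrulline birds. In the authors' deposited table the smallest absolute log2 fold change marked is 1.05, the largest p is 0.0498 and the smallest adjusted p is 0.923, so marks rest on unadjusted p-values. The authors' deposited table gives PER3 a log2 fold change of −0.58, and CRY1 0.30, and both lie below the smallest fold change marked. Among its 5 genes of smallest p with a symbol, UNC13D, which primes secretory granules, was 0.44 ± 0.15 and AK7, an adenylate kinase of cilia, −0.66 ± 0.23 in the present edgeR fit.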

How the data were processed

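Hypothalamus RNA of 24 broilers, 6 per group, was measured as read counts per gene, which the authors deposited with FPKM values. Recomputing FPKM from the deposited counts and gene lengths matched the authors' FPKM to a relative difference of 5.2e-15. The deposited comparison tables hold log2 fold changes, fold ratios and p-values by the authors. Tools named in the submitters' processing notes are TopHat, HISAT2, HTSeq and DESeq, and the build is GRCg6a, with versions not given in the sources used here.

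Counts were tested in R 4.3.3 with edgeR 4.0.16: filterByExpr (13742 of 16779 genes; 550 had no count, 4303 no symbol), TMM (factors 0.967 to 1.03), and a quasi-likelihood fit of 4 group means without covariates (20 residual degrees of freedom, biological coefficient of variation 0.186), with Benjamini-Hochberg adjustment at 0.05. Values after ± are standard errors, and n is 6 per group. CPM is scaled to the TMM library size. All 24 libraries held 12635239 to 15001037 counts. No library duplicated another of its group (chi-square per degree of freedom 6.7 to 34.9 over 45 pairs). Alternatives used DESeq2 1.42.0, limma 3.58.1 (voom), size factors, no filter, W status (mean log2 level of 32 genes, −2.52 to −2.06 or 4.04 to 4.30), the replicate block and leaving out each bird. The scripts were tested on simulated data.

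The comparison, members and 25 gene lists were chosen with earlier results of these data known. A further 3 lists, and the fit without birds with TTR above 1000 CPM, were added after values were seen. Named genes, with a symbol and off chromosome W, are these: the 12 of smallest p in each direction between the treatments; the 6 in each direction for both against control; genes called by any tool; 2 of smallest p per list; anchors chosen by function; the 4 most shared or opposite; and the 5 of smallest p in the authors' table. List members, non-overlapping genes and ENSGALG00000004946 outside this rule were named after their values were seen. No sequence is given.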

Additional observations from a re-analysis of the deposited data

Results flagged for a closer look

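Among 156 groups of 6 birds (52 named genes in 3 groups each), 12 held a bird far from the rest by Dixon's criterion, and chance gives about 1 in 20 groups. In L-citrulline birds these were CRY1 in bird 4 (86.6 CPM against 97.8 in the next), CLVS1 in bird 5 (34.5 against 40.2 CPM), TMEM174 in bird 2 (0.324 against 0.5 CPM), ANAPC16 in bird 3 (23.7 against 25 CPM), MFSD12 in bird 1 (9.46 against 10.9 CPM) and NKX2-1 in bird 2 (0.406 against 5.14 CPM), each the lowest of its group. ACTG2 in L-citrulline bird 5 was the highest, at 18.9 CPM against 1.07 CPM. In untreated birds the lowest were TMEM82 (6.24 against 6.86 CPM), SCNN1A (2.2 against 3.86 CPM) and POMC (0.213 against 1.21 CPM), all in bird 4, and HERPUD1 in bird 5 (17.8 against 22.8 CPM), and the highest was SRSF7 in bird 1 (73.7 against 69.8 CPM). No heated bird was set apart in this way among these 52 genes.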

How the results depend on the processing

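No comparison called a gene in the edgeR fit reported, so only the sizes of values and the counts could move. Of the list medians, 20 of the values under alternatives moved by more than their spread, and so did 9 of the values of single genes. Heat minus L-citrulline called 0 genes in edgeR and 1 in DESeq2, and 0 to 1 when single birds were left out, the 1 being without L-citrulline bird 2. Both treatments minus control called 0 in edgeR, 2 in DESeq2 and 0 in every fit without a bird. L-citrulline minus control called 0 in edgeR, 8 in DESeq2 and 0 to 1 without single birds, MNT being called without control bird 3 or L-citrulline bird 2. There were 146 genes at an unadjusted p under 0.05 on the same side of control with both treatments. This count became 60 within high-W birds, 174 within low-W birds and 112 to 221 without single birds. Size factors, voom, no filter and W status as a covariate called 0 genes in these comparisons. The fits without the birds of high TTR were run for heat minus L-citrulline and for both treatments minus control, and called 0 genes in each. At an unadjusted p under 0.05 heat minus L-citrulline gave 265 higher and 330 lower genes, 171 and 246 without heated bird 4, and 575 and 468 without L-citrulline bird 2.

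Deviations of L-citrulline and heated birds with equal replicate numbers correlated at r −0.132 to 0.292 over 6 pairs. The 2 highest values were 0.292 for replicate 2 and 0.151 for replicate 6. These correlations cannot show whether the numbers mark a shared cage, chamber or day. The fit with the replicate block called 0 genes, as did the fit without it. In the 2 cases where a single gene passed the threshold, ENSGALG00000004946 and MNT, the cause was not tested. In the simulated counts, at 12635239 counts and above and a spread of this size, most differences of 1.25-fold between the treatments went undetected. Recovery may be lower where fewer genes differ than in that simulation.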
